A study of Mus musculus with 8 samples.

Results

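The mRNAs of the integrated stress response driven by transcription factor ATF4 were examined in mouse livers with and without hepatocytic thioredoxin reductase-1 (Txnrd1). The members were fixed by name as Atf4, Atf5, Atf3, Ddit3, Trib3, Asns, Chac1, Fgf21, Sesn2 and Ppp1r15a, and every probe set annotated to one of them was used. This gave 10 of 18193 measured genes and 16 of 45037 probe sets. Total liver RNA of 8 mice was hybridized to Affymetrix mouse expression arrays, 1 array per animal, to ask how the transcriptome responds when hepatocytes lack this NADPH-dependent disulfide reductase. The 4 mutant mice (animals 69, 72, 73 and 81; genotype txnrd1 cond/- albCre1) carried 1 conditional and 1 null txnrd1 allele and 1 copy of a Cre transgene driven by the albumin promoter, which is active in hepatocytes, and their livers are called txnrd1-/-. The 4 control mice (animals 70, 71, 80 and 82; txnrd1 cond/+ albCre0) carried 1 conditional and 1 wild-type allele and no Cre, and their livers are called txnrd1cond/+. A conditional allele was thus common to all 8 mice, whereas Cre and the germline null allele were present only in the mutants, so their effects cannot be told apart from those of losing Txnrd1. In the mutants the other cells of the liver keep a conditional allele that is not exposed to hepatocytic Cre. All 8 were young male adults, singly housed for 10 days and killed in the afternoon.

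Cells under amino acid shortage, endoplasmic reticulum stress, heme deficiency or viral RNA phosphorylate the translation initiation factor eIF2α. General protein synthesis then slows, while the Atf4 and Atf5 mRNAs are translated better because of short upstream reading frames. ATF4 protein binds C/EBP-ATF response elements (CAREs) as a dimer with C/EBP proteins and raises transcription of genes for amino acid supply, redox balance and further regulators. Arrays measure mRNA, so neither eIF2α phosphorylation nor ATF4 protein was observed here.

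The promoter sequences of members that hold a CARE core are shown first, since this is the element through which ATF4 acts. RefSeq promoter windows (GRCm38.p6; 250 bases before to 50 bases after the annotated start) were matched for all 10 members, 11 windows in all because Atf5 has 2. The core searched was TGATGNAA on both strands (TTNCATCA when read on the gene's strand), and matches are in capitals.
Atf3, chr1:191183284-191183583, minus strand: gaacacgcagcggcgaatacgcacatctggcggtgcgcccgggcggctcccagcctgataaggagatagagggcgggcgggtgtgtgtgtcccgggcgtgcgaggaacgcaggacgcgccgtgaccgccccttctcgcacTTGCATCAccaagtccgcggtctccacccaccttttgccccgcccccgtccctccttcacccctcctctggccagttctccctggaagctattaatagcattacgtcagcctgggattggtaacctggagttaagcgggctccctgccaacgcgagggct
Trib3, chr2:152344011-152344310, minus strand: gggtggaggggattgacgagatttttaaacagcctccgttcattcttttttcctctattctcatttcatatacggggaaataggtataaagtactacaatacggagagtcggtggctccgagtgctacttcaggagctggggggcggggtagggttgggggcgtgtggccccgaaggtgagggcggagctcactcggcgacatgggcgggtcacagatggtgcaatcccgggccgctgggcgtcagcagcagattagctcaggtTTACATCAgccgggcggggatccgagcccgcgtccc
Asns, chr6:7693160-7693459, minus strand: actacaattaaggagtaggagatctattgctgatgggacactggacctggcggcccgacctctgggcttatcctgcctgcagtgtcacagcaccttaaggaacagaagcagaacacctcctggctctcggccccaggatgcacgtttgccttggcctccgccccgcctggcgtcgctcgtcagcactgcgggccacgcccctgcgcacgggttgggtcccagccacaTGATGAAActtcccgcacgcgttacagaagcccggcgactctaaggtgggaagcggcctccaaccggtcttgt
Chac1, chr2:119350992-119351291, plus strand: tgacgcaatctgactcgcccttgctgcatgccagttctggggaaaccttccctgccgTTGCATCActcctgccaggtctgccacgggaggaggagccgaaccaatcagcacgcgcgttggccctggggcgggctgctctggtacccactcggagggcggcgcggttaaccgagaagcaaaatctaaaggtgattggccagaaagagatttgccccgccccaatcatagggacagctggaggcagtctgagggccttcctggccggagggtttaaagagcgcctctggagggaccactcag
Fgf21, chr7:45615441-45615740, minus strand: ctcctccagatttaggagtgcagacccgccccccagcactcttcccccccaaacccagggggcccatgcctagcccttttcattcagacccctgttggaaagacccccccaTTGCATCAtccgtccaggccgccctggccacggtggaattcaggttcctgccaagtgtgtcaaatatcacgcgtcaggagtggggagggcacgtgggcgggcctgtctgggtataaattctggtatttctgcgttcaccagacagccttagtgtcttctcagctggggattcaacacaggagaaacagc
The core was present in 5 of the 10 genes (50%), against 1219 of 27025 genes in the same collection (4.51%), or 5 of 11 windows (45.5%) against 1304 of 32851 (3.97%). In Asns the match lay on the gene's strand, at -23 to -16 from the start base counted as 0. In the other 4 it lay on the opposite strand, at -110 to -103 in Atf3, 14 to 21 in Trib3, -193 to -186 in Chac1 and -139 to -132 in Fgf21. The windows of Atf4, Atf5, Ddit3, Sesn2 and Ppp1r15a held none of these letters. The members were picked by name as genes of the ATF4 response, so a share above that of all genes could be foreseen. It is not a result of these arrays. Cores outside the windows or with another spelling were not searched. A match describes the sequence, not binding.

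**Figure D1:**
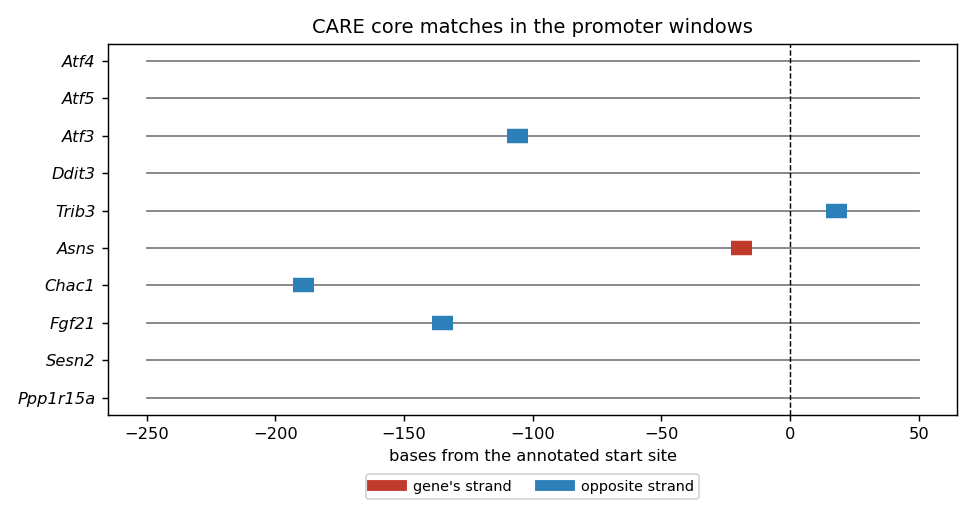
Position of the CARE core in the promoter window of each member, in bases from the annotated start (dashed line at 0). Red marks the gene's strand and blue the opposite strand. The 5 matches lie between -193 and 21.

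Each deposited value is a ratio of an array's signal to a per-probe-set centre, with array medians of 0.997 to 0.999, so a value of 1 is the middle of the 8 livers and levels of different genes cannot be compared. For the same reason the ratios cannot show whether liver markers are present. Genes with several probe sets were averaged on the log2 scale, differences are log2 txnrd1-/- minus txnrd1cond/+ from limma, and p-values are limma's unless an exact permutation test is named. The exact test, 2-sided over 70 arrangements, cannot give a p below 0.029. The 3 Txnrd1 probe sets did not move together: log2 differences were 1.11 (SE 0.26) for 1421529_a_at, -0.71 (0.19) for 1424486_a_at and -0.41 (0.13) for 1424487_x_at, so they gave no single check of the genotype labels. In bulk liver, fewer cells of a type and less RNA per cell cannot be told apart. Marker lists for hepatocytes, Kupffer cells, neutrophils, endothelial cells, stellate cells, cholangiocytes and lymphocytes had median log2 differences of -0.15 to -0.01, with 0 genes at the study's thresholds. Stellate markers were below 0 for 10 of 10 genes and endothelial markers for 9 of 10, with summed stellate ratios of 8.6 to 11.6 in txnrd1-/- livers and 8.15 to 11.6 in txnrd1cond/+ livers, and their part in the members' values was not tested. Summed hepatocyte marker ratios ranged from 9.37 to 10.7 in txnrd1-/- livers and from 10.0 to 10.7 in txnrd1cond/+ livers.

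Asns and Trib3, an amino acid synthetase and a pseudokinase, were the members with higher mRNA ratios in txnrd1-/- livers at the thresholds of the study's methods, a 1.5-fold difference with an unadjusted p of at most 0.05. They were 2 of 10 member genes, where 0.654% of all genes met the same thresholds (119 of 18193), and 3 of 16 member probe sets did, where 0.562% of all probe sets did. After Benjamini-Hochberg adjustment over all features, 0 of 10 member genes and 0 of 16 member probe sets passed in limma (every adjusted p = 1.0), where 0.0824% of all genes and 0.0266% of all probe sets passed. At an unadjusted p of at most 0.05 the count of member genes was also 2. With each gene or probe set fitted alone, without limma's shared variance, 0 member genes and 0 member probe sets met the study's thresholds. In 0 of 10 members was every txnrd1-/- liver above every txnrd1cond/+ liver, against 1.13% of all genes, and in 0 was every txnrd1-/- liver below, against 0.583%. Log2 differences were above 0 for 6 members and below 0 for 4, and their median was 0.14, against 0.00 over all genes.

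**Figure D2:**
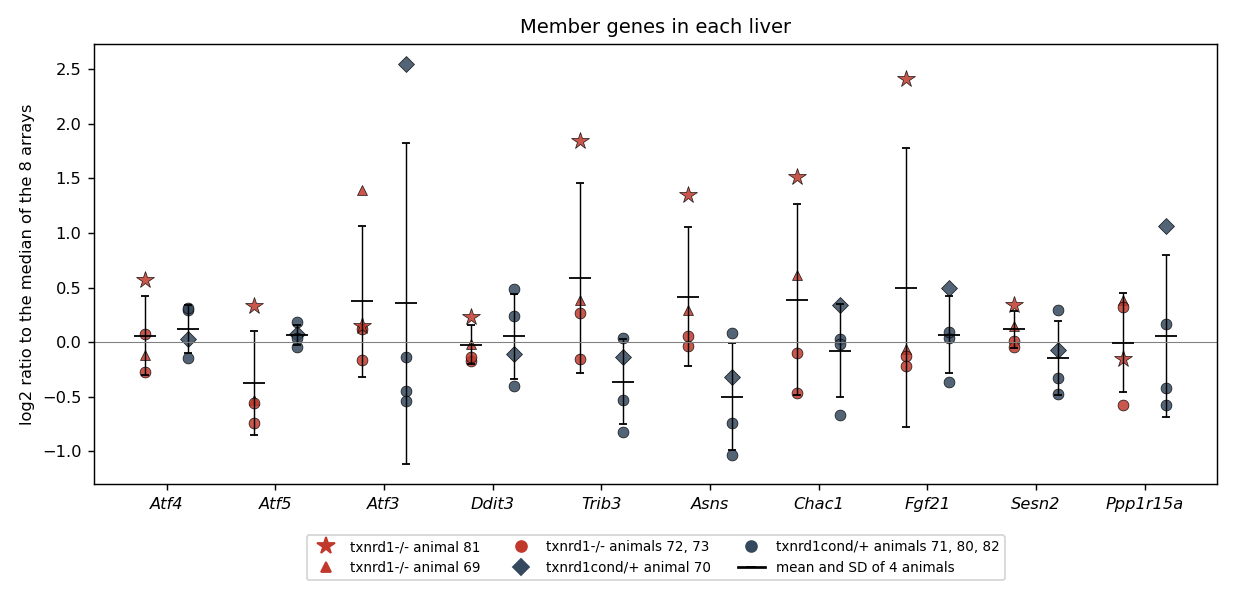
Log2 ratio of each member gene in each liver, with txnrd1-/- livers in red and txnrd1cond/+ livers in dark blue, and the mean with its SD over 4 animals. Mutant animal 81 (star) is the top point for 7 of the 10 genes, and control animal 70 (diamond) for Atf3 and Ppp1r15a.

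Atf4, which encodes the central activator, differed little between genotypes. Its ratios were 0.924, 1.05, 0.825 and 1.48 in txnrd1-/- animals 69, 72, 73 and 81, against 1.02, 1.23, 0.904 and 1.24 in txnrd1cond/+ animals 70, 71, 80 and 82, and the animals keep these orders below. The groups overlapped, at 1.07 ± 0.288 in txnrd1-/- and 1.10 ± 0.165 in txnrd1cond/+ livers (SD, n = 4 each), with a log2 difference of -0.06 (SE 0.19; 95% interval -0.48 to 0.36; limma p = 0.74; exact permutation p = 0.80). The 3 Atf4 probe sets ordered the animals differently. Probe set 1438992_x_at was at 2.39 in mutant animal 81 and between 0.702 and 1.2 in the other 7 livers (log2 difference 0.09, SE 0.33). Probe set 1439258_at was at 1.76 and 1.7 in control animals 71 and 82, with 1.02 in animal 81 (-0.35, SE 0.22). The third, 1448135_at, spanned 0.879 to 1.32 over all 8 livers (0.07, SE 0.14).

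Atf5, a related bZIP factor of similar translational control, was at 0.691, 0.599, 0.68 and 1.26 in txnrd1-/- livers, against 1.05, 1.03, 0.972 and 1.14 in txnrd1cond/+ livers. Mutant animals 69, 72 and 73 lay below every control and mutant animal 81 lay above every control. With all 8 livers the log2 difference was -0.44 (SE 0.21; 95% interval -0.91 to 0.03; limma p = 0.061; exact permutation p = 0.143). Without animal 81 it was -0.68 (SE 0.11), past the study's thresholds but not after adjustment (limma adjusted p = 0.21). Atf5 was the member gene that met those thresholds only when an animal was left out.

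Atf3, a stress-induced bZIP factor that acts mostly as a repressor and is also an immediate early gene, varied most between livers of 1 genotype. Ratios were 2.62, 1.09, 0.892 and 1.11 in txnrd1-/- livers, against 5.85, 0.734, 0.909 and 0.687 in txnrd1cond/+ livers. Control animal 70 and mutant animal 69 stood above the rest, 1 in each genotype, and the log2 difference was 0.02 with a wide 95% interval of -1.42 to 1.46 (SE 0.64; limma p = 0.97; exact permutation p = 1.0). Without control animal 70 it was 0.75 (SE 0.33, limma adjusted p = 1.0), and without mutant animal 69 it was -0.32.

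Ddit3 encodes CHOP, a C/EBP-family factor tied to the apoptotic phase of prolonged stress. Its ratios were 0.991, 0.888, 0.91 and 1.17 in txnrd1-/- livers, against 0.925, 1.4, 0.757 and 1.18 in txnrd1cond/+ livers, so the mutants lay inside the range of the controls. The log2 difference was -0.08 (SE 0.19; 95% interval -0.5 to 0.34; limma p = 0.70; exact permutation p = 0.714), and those of its probe sets 1417516_at and 1443897_at were -0.09 (SE 0.18) and -0.06 (SE 0.22). Without control animal 71 that of the gene was 0.07.

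Asns, asparagine synthetase, makes asparagine from aspartate and glutamine. Ratios were 1.23, 0.973, 1.04 and 2.54 in txnrd1-/- livers, against 0.804, 0.598, 1.06 and 0.488 in txnrd1cond/+ livers. Mutant animal 81 was highest and control animal 80 overlapped the mutants. The means were 1.45 ± 0.738 in txnrd1-/- and 0.737 ± 0.251 in txnrd1cond/+ livers (SD, n = 4 each). On the log2 scale the fitted difference was 0.92, or 1.89-fold between geometric means (SE 0.33; 95% interval 0.19 to 1.65; limma p = 0.019, adjusted p = 1.0; exact permutation p = 0.0857). Both Asns probe sets met the study's thresholds, at 2.31-fold for 1433966_x_at (log2 1.21, SE 0.41; limma p = 0.014, exact permutation p = 0.0571) and 1.55-fold for 1451095_at (0.63, SE 0.26; limma p = 0.036, exact permutation p = 0.0857). In 1433966_x_at the ratios were 1.34, 0.986, 1.05 and 3.02 in txnrd1-/- livers, against 0.817, 0.5, 1.01 and 0.352 in txnrd1cond/+ livers, so a low control animal 82 and a high mutant animal 81 set its span. Without animal 81 Asns was 1.53-fold higher in txnrd1-/- livers (log2 0.61, SE 0.25) and still past those thresholds, whereas without control animal 82 it was not (log2 0.74). Probe set 1451095_at missed them without mutant animal 81 (0.37) and without control animals 70 (0.62), 71 (0.57) or 82 (0.55). Asns is among the mRNAs the study picked on these same arrays, so its difference is not independent evidence.

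Trib3, a tribbles pseudokinase induced by ATF4 and CHOP that binds both ATF4 and the kinase AKT, had ratios of 1.31, 1.2, 0.901 and 3.59 in txnrd1-/- livers, against 0.91, 0.694, 0.566 and 1.03 in txnrd1cond/+ livers. Animal 81 again stood highest, and mutant animal 73 lay among the controls. Means were 1.75 ± 1.24 in txnrd1-/- and 0.801 ± 0.21 in txnrd1cond/+ livers (SD, n = 4 each). The fitted log2 difference was 0.95, or 1.93-fold between geometric means (SE 0.38; 95% interval 0.09 to 1.8; limma p = 0.034, adjusted p = 1.0; exact permutation p = 0.0857). Probe set 1426065_a_at met the study's thresholds (1.94-fold; limma p = 0.018, exact permutation p = 0.0571; 2.9 in animal 81) and missed them without control animal 80 (log2 0.76). Probe set 1456225_x_at, at 4.44 in animal 81, did not meet them (1.91-fold; limma p = 0.066, exact permutation p = 0.0571), but did without mutant animal 73 (log2 1.21) or control animal 82 (1.11). Without animal 81 the gene was 1.44-fold higher in txnrd1-/- livers (log2 0.53, SE 0.22) and no longer past the fold threshold, and without control animals 71 or 80 (0.89 and 0.79) it no longer met both thresholds.

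Chac1 encodes a γ-glutamylcyclotransferase that degrades glutathione. Ratios were 1.53, 0.933, 0.723 and 2.86 in txnrd1-/- livers, against 1.27, 1.02, 0.629 and 0.987 in txnrd1cond/+ livers. Animals 81 and 69 were above every control and animals 72 and 73 were within the control range. The 1.38-fold difference did not pass (log2 0.47, SE 0.39; 95% interval -0.41 to 1.34; limma p = 0.26; exact permutation p = 0.40), and without animal 81 the log2 difference was 0.09 (SE 0.29).

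Fgf21, a hormone that the liver secretes in fasting and amino acid restriction, was high in a single liver. Its ratios were 0.957, 0.918, 0.857 and 5.32 in txnrd1-/- livers, against 1.41, 1.03, 0.777 and 1.07 in txnrd1cond/+ livers. The mutant mean of 2.01 ± 2.2, against 1.07 ± 0.259 in txnrd1cond/+ livers (SD, n = 4 each), therefore rests on animal 81. The log2 difference was 0.43 (SE 0.53; 95% interval -0.75 to 1.61; limma p = 0.43; exact permutation p = 0.83), and -0.21 (SE 0.19) without that animal.

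Sesn2, sestrin-2, restrains the nutrient-sensing kinase complex mTORC1 and is induced by ATF4. Ratios were 1.11, 1.01, 0.97 and 1.27 in txnrd1-/- livers, against 0.953, 0.72, 0.796 and 1.23 in txnrd1cond/+ livers. Only control animal 82 lay among the mutants. The difference was 1.2-fold (log2 0.26, SE 0.17; 95% interval -0.12 to 0.64; limma p = 0.16; exact permutation p = 0.20), with 0.34 (SE 0.16) for probe set 1425139_at and 0.18 (SE 0.22) for 1451599_at.

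Ppp1r15a encodes GADD34, the inducible subunit that directs protein phosphatase 1 to eIF2α and ends the response. It was at 1.31, 1.25, 0.672 and 0.899 in txnrd1-/- livers, against 2.09, 0.669, 0.749 and 1.12 in txnrd1cond/+ livers. Its highest liver was control animal 70, as for Atf3. The log2 difference was -0.06 (SE 0.35; 95% interval -0.85 to 0.72; limma p = 0.86; exact permutation p = 0.943), and 0.27 (SE 0.26) without animal 70.

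**Figure D3:**
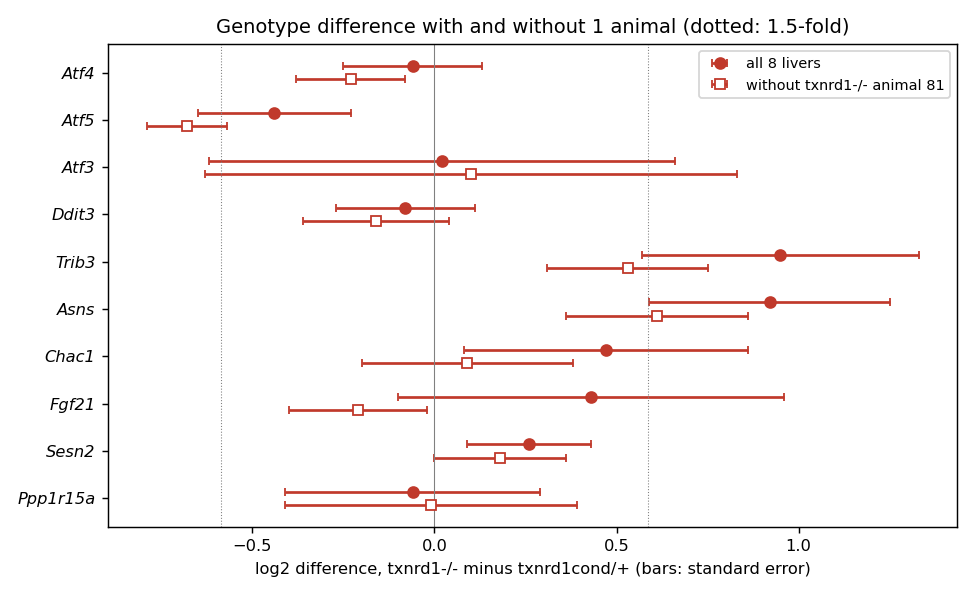
Log2 difference of each member between txnrd1-/- and txnrd1cond/+ livers, with its standard error, over all 8 livers (filled) and without mutant animal 81 (open). Dotted lines mark 1.5-fold. Trib3 (0.95 and 0.53) and Asns (0.92 and 0.61) lie above 0 either way, whereas Fgf21 is at 0.43 and -0.21 and Atf5 at -0.44 and -0.68.

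Members that were high in a liver were often high in the same few animals. Mutant animal 81 held the highest ratio of 7 of the 10 members (Atf4, Atf5, Trib3, Asns, Chac1, Fgf21 and Sesn2), whereas it was the highest liver for 15% of all genes. In that liver 4 members (Trib3, Asns, Chac1 and Fgf21) were at least 2-fold above the middle, as were 0.577% of all genes. The median log2 ratio of the members was 0.46 in animal 81, with 0.23, -0.01 and -0.19 in mutant animals 69, 72 and 73, against 0.05, -0.21, -0.35 and 0.13 in the controls. Ddit3 was highest in control animal 71 and Atf3 and Ppp1r15a in control animal 70. The lowest liver was control animal 80 for 4 of the 10 members, as it was for 15.8% of all genes. Kupffer cell markers had a median log2 ratio of 0.17 in animal 81 and neutrophil markers -0.27. Summed Kupffer marker ratios were 8.33 to 11.3 in txnrd1-/- livers and 8.55 to 11.9 in txnrd1cond/+ livers, so animal 81 was inside the control range, and the part of these cells in the members' values was not tested. Summed neutrophil markers (8 of 10 measured) were 5.76 to 10.6 in txnrd1-/- livers, the lowest in animal 81, and 7.45 to 14.6 in txnrd1cond/+ livers, the highest in animal 70.

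The livers with high Atf3 were also those with high immediate early mRNAs, which rise within minutes of a stimulus. Of 14 such genes, 13 were highest in control animal 70, which was the highest liver for 10.3% of all genes. Fos, a subunit of AP-1, was at 9.99, 3.43, 0.259 and 0.388 in txnrd1-/- livers, against 22.2, 0.241, 1.62 and 0.233 in txnrd1cond/+ livers. Myc was the exception, with 2.28 in mutant animal 69. The list's median log2 ratios were 0.92, 0.23, -0.72 and -0.34 in txnrd1-/- animals 69, 72, 73 and 81, against 1.66, -0.70, 0.30 and -0.72 in txnrd1cond/+ animals 70, 71, 80 and 82. Between genotypes none of the 14 met the study's thresholds, from Btg2 at -0.54 to Myc at 0.61, and the list's median difference was -0.10. The part of these early mRNAs in the Atf3 and Ppp1r15a values was not tested.

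**Figure D4:**
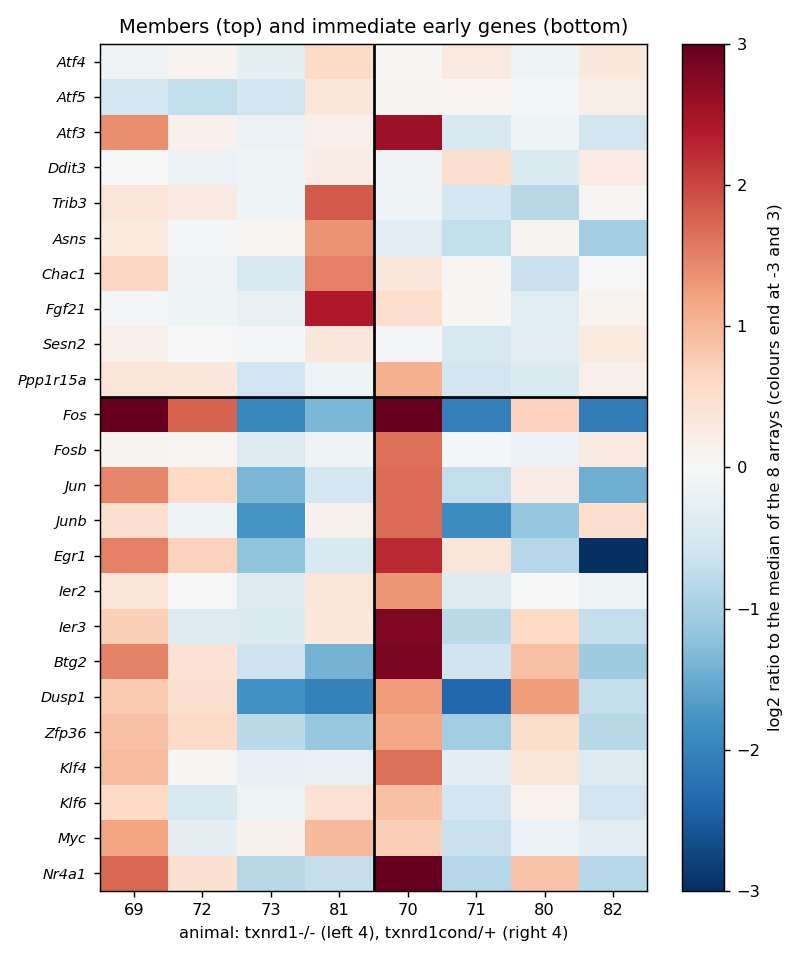
Log2 ratio to the middle of the 8 arrays for the 10 members (top) and 14 immediate early genes (bottom), with txnrd1-/- animals in the left 4 columns and txnrd1cond/+ animals in the right 4. Red is higher and blue lower. Trib3, Asns, Chac1 and Fgf21 are red in animal 81, and Atf3, Ppp1r15a and the early genes in animal 70.

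Other genes of the pathway did not meet the thresholds: in each of the 13 gene lists beside the members, 0 genes passed after adjustment and 0 met the study's thresholds. Upstream, the 4 eIF2α kinases ranged from Eif2ak3 (PERK, the endoplasmic reticulum sensor) at -0.18 (SE 0.13) to Eif2ak2 (PKR) at 0.07 (SE 0.14). Subunits of eIF2, eIF2B and the eIF2α phosphatase, listed with the separate initiation factor gene Eif2a, had a median of -0.04 (10 of 11 measured). They ranged from the eIF2B subunit Eif2b5 at -0.17 (SE 0.14) to the phosphatase catalytic subunit Ppp1ca at 0.21 (SE 0.11). Eif2s1, which encodes eIF2α itself, was the gene not measured. Partner and related bZIP factors, 12 of 12 measured, had a median of -0.04, with Crebzf highest at 0.19 (SE 0.17). Nfe2l2, encoding Nrf2, had the lowest difference of that list and was at 0.917, 0.845, 0.754 and 1.12 in txnrd1-/- livers, against 1.33, 1.02, 1.05 and 1.22 in txnrd1cond/+ livers, under the fold threshold (log2 -0.35, SE 0.14; limma p = 0.036, adjusted p = 1.0; exact permutation p = 0.0857).

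Downstream, amino acid transporters (10 of 10 measured) had a median log2 difference of -0.01, from the neutral amino acid transporter Slc1a4 at -0.25 (SE 0.21) to the glycine transporter Slc6a9 at 0.32 (SE 0.27). Enzymes of amino acid and folate-dependent carbon synthesis (12 of 13) had a median of 0.05, with cystathionine synthase Cbs at -0.22 (SE 0.15) and the mitochondrial folate enzyme Mthfd1l at 0.55 (SE 0.37). Cytosolic aminoacyl-tRNA synthetases (18 of 20) had a median of -0.01, from Aars at -0.26 (SE 0.14) to Qars at 0.16 (SE 0.12). Other ATF4 target regulators (13 of 14) had a median of 0.03, with Cdkn1a, a cell cycle inhibitor, at -0.30 (SE 0.18) and the mTORC1 inhibitor Ddit4 at 0.60 (SE 0.71). Ddit4 was above 1.5-fold but spread widely, at 3.22, 1.2, 0.797 and 0.673 in txnrd1-/- livers, against 1.86, 0.463, 1.89 and 0.24 in txnrd1cond/+ livers. The tribbles, asparaginase and glutathione degradation list (6 of 7) had the highest list median, 0.23, from the pseudokinase Trib1 at -0.03 (SE 0.17) to the asparaginase Aspg at 0.47 (SE 0.33). The other arms of the unfolded protein response (20 of 20) had a median of -0.04, from the disulfide isomerase Pdia6 at -0.21 (SE 0.12) to the co-chaperone Dnajb9 at 0.28 (SE 0.16). The mitochondrial response (7 of 7) also had a median of -0.04, from Ubl5 at -0.13 (SE 0.11) to the chaperonin Hspe1 at 0.18 (SE 0.19). Sestrin and nutrient-sensing genes (8 of 8) had a median of 0.02, from the mTORC1 subunit Rptor at -0.07 (SE 0.09) to Sesn1 at 0.15 (SE 0.14).

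Genes that induce Fgf21 or receive its signal (9 of 9) had a median of -0.09, with the receptor Fgfr3 highest at 0.11 (SE 0.14). Klb, lowest of the list and encoding the FGF21 co-receptor β-Klotho, was at 0.962, 0.946, 0.902 and 0.825 in txnrd1-/- livers, against 1.18, 0.99, 1.1 and 1.02 in txnrd1cond/+ livers. Every txnrd1-/- liver was below every txnrd1cond/+ liver, but the log2 difference of -0.24 (SE 0.10) was under the 1.5-fold threshold and did not pass adjustment (limma p = 0.044, adjusted p = 1.0; exact permutation p = 0.0286, the smallest possible).

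**Figure D5:**
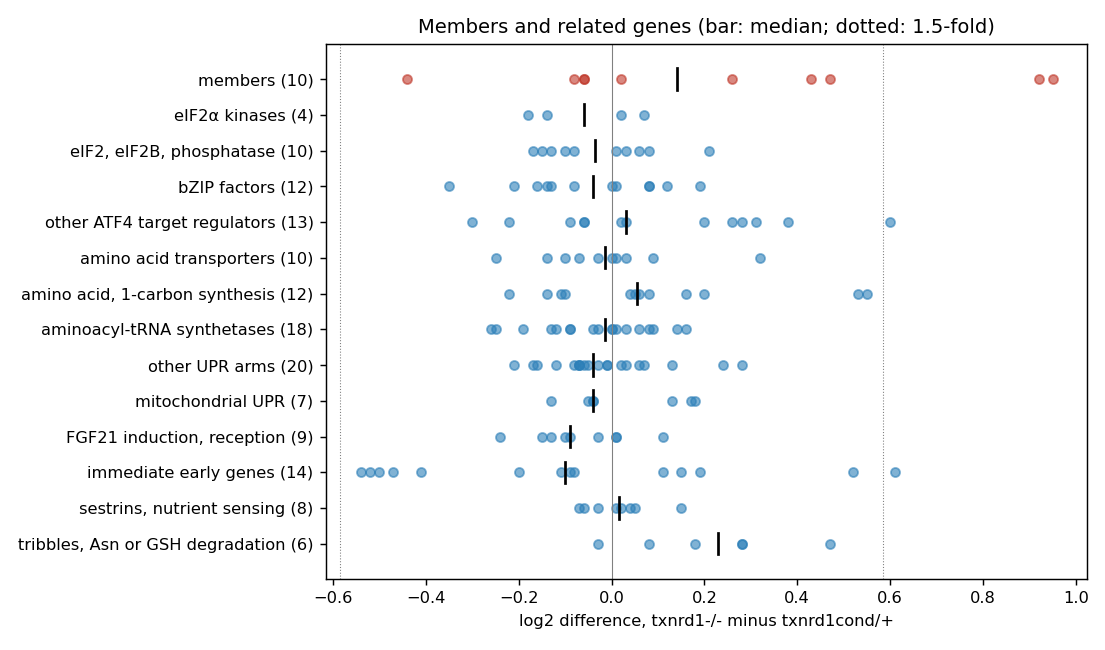
Log2 difference (txnrd1-/- minus txnrd1cond/+) of each measured gene of the members (red) and of 13 related lists (blue), with the list's median as a bar and 1.5-fold as dotted lines. Trib3 (0.95) and Asns (0.92) are the members beyond 1.5-fold. Ddit4 (0.60) and Myc (0.61) are the other genes past that line.

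How far members varied together from liver to liver was measured over the 45 pairs of members (n = 8 livers, log2 ratios). Both genotypes were pooled, so differences between genotypes enter r. Pearson r was above 0 for 36 pairs, but 0 pairs passed Benjamini-Hochberg adjustment over the 45 by Pearson or Spearman exact permutation test (7 and 4 at an unadjusted p of at most 0.05). Trib3 and Chac1 had r = 0.89 (exact p = 0.007, adjusted 0.13; rho 0.71, exact p = 0.058, adjusted 0.35), and r was 0.36 without the pair of livers farthest from the middle of Trib3. Chac1 and Fgf21 had r = 0.88 (exact p = 0.006, adjusted 0.13; rho 0.83, exact p = 0.015, adjusted 0.31), and 0.50 without the 2 farthest livers, animals 81 and 80. Atf3 and Ppp1r15a had r = 0.83 (exact p = 0.0093, adjusted 0.13; rho 0.71, exact p = 0.058, adjusted 0.35), and 0.24 without animals 69 and 70. These r values were lower without those livers, and the few livers left cannot show whether a relation remains. Trib3 and Sesn2 kept the same r of 0.79 without their 2 farthest livers (exact p = 0.012, adjusted 0.13; rho 0.88, exact p = 0.0072, adjusted 0.31). After genotype means were subtracted, r was 0.71 for Trib3 and Sesn2 and 0.91 for Trib3 and Chac1. It was then 0.88 for Chac1 and Fgf21 and 0.83 for Atf3 and Ppp1r15a. The genes outside the members with the profile most like Asns over the 8 livers were Tmem51 (r = 0.975), Ubap1 (0.968), Emc1 (0.967), Unkl (0.965) and Spns2 (0.961). All 5 were highest in animal 81, at ratios between 1.27 and 2.2. They were picked from all genes for their r with Asns, itself highest in animal 81, so this peak follows from the choice. How high an r arises by chance over so many genes and 8 livers was not tested.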

How the data were processed

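Liver RNA of 4 txnrd1-/- and 4 txnrd1cond/+ mice was measured on Affymetrix mouse expression arrays. The deposited values are ratios of each probe set to its centre over the arrays. The authors used GeneSpring, RMA is named by the submitters' notes on processing, and neither the RMA version nor the order of steps is stated there. The ratios hold no signal level, so the minimum raw signal of the study's methods could not be applied and depth over background is unknown. Of 45101 probe sets, 64 controls of the array were dropped. Empty values (5) were treated as missing. Symbols from the platform annotation named 34945 probe sets with 1 gene, 932 with several (not used for genes) and 9160 with none. Genes are means of log2 ratios over probe sets with 1 symbol.

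Genotypes were compared with limma 3.58.1 (lmFit, eBayes; R 4.3.3) on log2 ratios of all features with Benjamini-Hochberg adjustment. A call needed adjusted p of at most 0.05 and 1.5-fold, and the study's thresholds were read as an unadjusted p of at most 0.05 and 1.5-fold. Single genes were also compared by an exact permutation test in Python 3.11.15. The number of arrays, 4 per genotype, limits the precision. Text names every member and its probe sets, of each related list the genes at the study's thresholds or else those with the highest and lowest difference (for cell markers the lists only), and the 5 genes most like Asns. Psat1, Mthfd2, Sqstm1, Gadd45a, Phgdh, Psph, Shmt2, Aldh1l2, Cth and Fos were named outside this rule, after their values were seen. Members, lists and tests were chosen with earlier results of these data known. The fits were tested on simulated data. Alternatives were the scaling between arrays, an offset of 0.05, the variance model, array weights, low against high animal numbers, a filter on low variation, the value of genes with several probe sets, and leaving out each animal.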

Additional observations from a re-analysis of the deposited data

Results flagged for a closer look

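Ratios of single livers stood far from those of the other 3 of their genotype, by Dixon's 95% criterion for 4 samples, in 9 cases among 20 sets of gene and genotype and 22 further sets of probe set and genotype. The criterion was applied to the ratios, not to the log2 values used in the fits. High values stand farther from the rest as ratios than as log2 values. For independent sets of normal values, chance flags about 1 set in 20. These sets were not independent: genes with several probe sets were counted again by probe set, and all sets came from the same livers. The number of cases can therefore not be set against that rate. Mutant animal 81 was the liver in 7 of the 9 cases. There Fgf21 was at 5.32, with 0.857 to 0.957 in the other txnrd1-/- livers, Trib3 at 3.59 (others 0.901 to 1.31), Asns at 2.54 (others 0.973 to 1.23) and Atf5 at 1.26 (others 0.599 to 0.691). Of single probe sets in that liver, Trib3 1456225_x_at was at 4.44 (others 0.853 to 1.19), Asns 1451095_at at 2.14 (others 0.961 to 1.14) and Atf4 1438992_x_at at 2.39 (others 0.702 to 0.982). Atf3 was set apart in both genotypes, at 2.62 in mutant animal 69 (others 0.892 to 1.11) and at 5.85 in control animal 70 (others 0.687 to 0.909).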

How the results depend on the processing

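With each gene or probe set fitted alone, without limma's shared variance, 0 member genes and 0 member probe sets met the study's thresholds, and with the probe set of largest variance for each gene 1 gene did (Asns). Leaving out each animal gave 1 to 2 genes (Asns alone without control animals 71 or 80, Trib3 alone without 82). Without mutant animal 81 the genes were Asns and Atf5, the latter lower in txnrd1-/- livers, and Trib3 was lost. After adjustment the counts were 0 under each alternative run. Differences near 0 changed sign: Atf3 was -0.17 with array weights and -0.21 after adjusting for whether animals were numbered in the lower or upper range, Atf4 0.09 with its probe set of largest variance, Atf4 1438992_x_at -0.04 after quantile normalization and -0.03 with array weights, and Atf4 1448135_at -0.00 with array weights. Over the 8 fits that each left out 1 animal, log2 differences ranged from -0.32 to 0.75 for Atf3, from -0.23 to 0.05 for Atf4, from -0.23 to 0.07 for Ddit3, from -0.27 to 0.27 for Ppp1r15a and from -0.21 to 0.67 for Fgf21. The same ranges were -0.29 to 0.3 for Atf4 1438992_x_at, -0.05 to 0.15 for 1448135_at, -0.25 to 0.0 for Ddit3 1417516_at and -0.2 to 0.14 for 1443897_at. The cause of these shifts was not tested. The number of members highest in animal 81 was 7 under median centring and quantile normalization, and of early genes highest in animal 70 it was 13 and 9, alternatives chosen after seeing the data. No paired analysis was possible because the sample labels give no pairing of mutant with control animals.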

Other observations

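The genes of the related lists at least 2-fold above the middle in mutant animal 81 were Psat1, Mthfd2, Sqstm1 and Gadd45a, where 0.577% of all genes were. These genes were chosen here after their values were seen. Animal 81 was the highest liver for 5 of 13 other ATF4 target regulators and 2 of 10 amino acid transporters, against 15% of all genes. The median log2 ratios of those lists in that liver were 0.12 and 0.03, and the ratio of Ddit4 was 0.673. Psat1, phosphoserine aminotransferase of serine synthesis, was at 0.924, 0.522, 1.19 and 4.12 in txnrd1-/- animals 69, 72, 73 and 81, against 0.999, 0.75, 1.51 and 0.475 in txnrd1cond/+ animals 70, 71, 80 and 82. Mthfd2, a mitochondrial folate enzyme, was at 2.1 in animal 81 and between 0.583 and 1.12 in the other 7 livers. Sqstm1, the autophagy receptor p62, was at 2.12 in animal 81 and between 0.886 and 1.08 in the others. Gadd45a was at 2.59 in animal 81 and also high in control animal 70, at 1.93, with 0.426 to 1.15 in the rest. Over all animals the log2 differences of Psat1 (0.53, SE 0.57), Mthfd2 (0.06, SE 0.32), Sqstm1 (0.28, SE 0.25) and Gadd45a (0.2, SE 0.51) did not pass in limma.

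Most of the amino acid and folate list did not share this pattern. Animal 81 was the highest liver for 4 of its 12 measured genes (Phgdh, Psat1, Psph and Mthfd2), against 15% of all genes. Shmt2 (1.08 in animal 81) and Aldh1l2 (1.02) were highest in mutant animal 72, as was Cth (0.926 in animal 81), and Mthfd1l was at 1.64 in animal 81 and 1.71 in control animal 80. The median log2 ratio of the list was 0.16 in mutant animal 81 and 0.28 in control animal 80. Cytosolic aminoacyl-tRNA synthetases were highest in animal 81 for 6 of 18 genes, but their median log2 ratio was 0.17 in mutant animal 81 and 0.22 in control animal 80.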
